A study of Mus musculus with 6 samples.

Results

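The genes described here are 10 components and direct outputs of the circadian clock, the oscillator that runs in nearly every cell, measured as mRNA in mouse liver. They were chosen by symbol and comprise Arntl, Clock, Per1, Per2, Per3, Cry1, Nr1d1, Nr1d2, Dbp and Nfil3. The count files held 23284 genes, of which 12453 had enough reads to be tested, and all 10 clock genes were among those tested. Livers came from male FXR-floxed mice, in which the gene of the bile acid receptor FXR (Nr1h4) can be removed by Cre recombinase. At 8 weeks of age every mouse received AAV8, an adeno-associated virus that infects liver, carrying Cre under the TBG promoter, which is active in hepatocytes. The same injection held AAV8 with either FXR-WT or Y67F-FXR, a form in which tyrosine 67 of FXR is replaced by phenylalanine, also under the TBG promoter. For each group 3 liver samples were sequenced, which need not be all the mice of that group. The deletion of the mouse gene was therefore common to both groups, and 4 weeks later both were fed chow with 0.5% cholic acid (CA), a bile acid, for 6 h. The only comparison the design offered was Y67F-FXR against FXR-WT, with no group without virus and no series of hours. The hour of the day at which the livers were taken is not given in the sources used here.

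In the clock, the protein products of Arntl (BMAL1) and Clock pair up and activate genes through E-boxes, among them the Per and Cry genes, whose proteins then block that pair. A further loop runs through Nr1d1 and Nr1d2, which encode the REV-ERB repressors and act on ROR elements, including those of Arntl and Nfil3. DBP activates and NFIL3 represses through the same D-box sequence, and these output factors carry the rhythm to metabolic genes in liver. Per1 also answers directly to cAMP, glucocorticoids and other signals, so its mRNA can move apart from the rest of the oscillator.

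No clock gene passed the threshold for a call, set at p under 0.05 after Benjamini-Hochberg adjustment, in edgeR's quasi-likelihood test, together with a difference of more than 1.5-fold. That threshold was passed by 121 of the 12453 genes tested, or 0.972%. An unadjusted p under 0.05 was reached by 3 of the 10, Nfil3, Per1 and Nr1d1, all fitted higher in Y67F-FXR, where 13.4% of all genes reached it in either direction and 6.75% reached it as higher. Nr1d1 and Nfil3 were also the 2 clock genes whose groups did not overlap. Groups that did not overlap were found for 20.6% of all genes, and for 10.2% with Y67F-FXR higher. In all, 2 clock genes were fitted lower and 8 higher, where 52% of all tested genes were fitted higher. The median log2 fold change of the clock genes was 0.21 beside 0.012 over all tested genes.

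The promoters of these 3 genes are shown because short motifs there are one place where a clock, a D-box or a cAMP input can act. Each line gives the 250 bases before the RefSeq transcription start on the strand of the gene, 5′ to 3′, in build GRCm38.p6. Capitals mark E-boxes (CACGTG), D-boxes (TTATGTAA, TTATGCAA or TTACGTAA), ROR elements (TAGGTCA or TGGGTCA) and full CRE sites, the cAMP response element (TGACGTCA), on either strand. The Per1 window is the first of 2 listed and lies at chr11:69098699-69098948 on the plus strand. The Nfil3 window lies at chr13:52981040-52981289 and the Nr1d1 window at chr11:98775378-98775627, both on the minus strand.
Per1: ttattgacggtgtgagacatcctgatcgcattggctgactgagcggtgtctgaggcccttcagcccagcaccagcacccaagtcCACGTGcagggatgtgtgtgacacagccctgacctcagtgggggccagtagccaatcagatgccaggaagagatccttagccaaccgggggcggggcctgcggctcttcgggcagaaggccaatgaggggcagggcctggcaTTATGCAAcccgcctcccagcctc
Nfil3: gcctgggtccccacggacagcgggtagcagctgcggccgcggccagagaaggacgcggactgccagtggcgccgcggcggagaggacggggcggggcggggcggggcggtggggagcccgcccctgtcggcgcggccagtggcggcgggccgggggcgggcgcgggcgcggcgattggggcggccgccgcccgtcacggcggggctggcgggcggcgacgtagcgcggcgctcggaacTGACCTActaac
Nr1d1: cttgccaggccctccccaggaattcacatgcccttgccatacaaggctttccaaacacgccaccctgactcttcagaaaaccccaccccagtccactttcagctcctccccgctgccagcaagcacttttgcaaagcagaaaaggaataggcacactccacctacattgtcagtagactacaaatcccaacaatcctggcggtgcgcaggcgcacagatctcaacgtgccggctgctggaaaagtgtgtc

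The Per1 window held an E-box and a D-box whose last bases are the 161st and the 17th before the start site. The Nfil3 window held a ROR element, read on the opposite strand as TGACCTA, whose last base is the 6th before the start. In the Nr1d1 window none of these letters was found. RefSeq windows were matched for 9 of the 10 clock genes (13 windows), and Per2 had no entry. Among those 9 genes an E-box was found in 2 (Per1 and Cry1), a D-box in 2 (Per1 and Per3), a ROR element in 1 (Nfil3) and a full CRE in 0. The shorter sequence TGACG, the core that is contained in the full CRE, was found in 3 (Per1, Cry1 and Nfil3). Counted by window, the E-box was in 2 of the 13, a D-box in 2, a ROR element in 1, a full CRE in 0 and the shorter sequence in 4. Of 32851 mouse promoter windows of the same length, 6.02% held the E-box, 1.61% a D-box, 5.38% a ROR element, 1.55% a full CRE and 17.8% the shorter sequence.

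**Figure D1:**
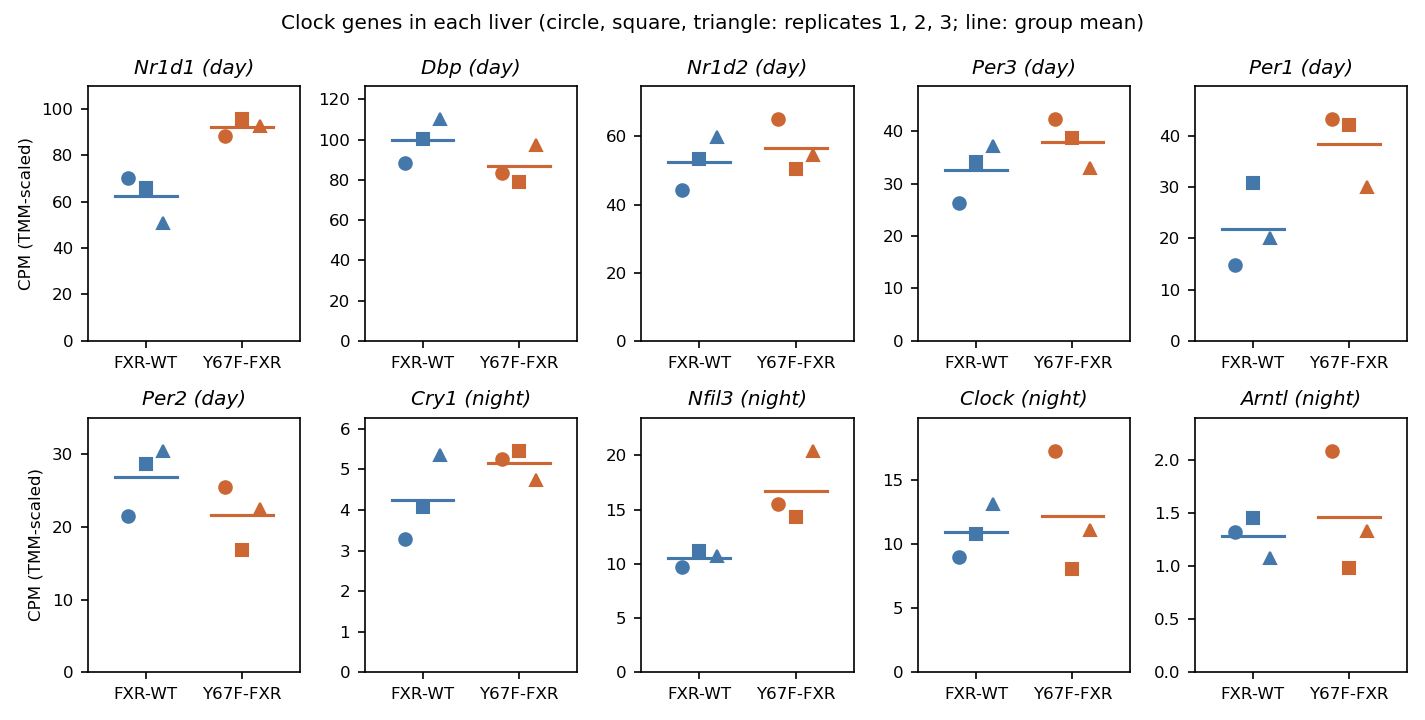
Each panel plots 1 clock gene, with counts per 1000000 reads (CPM, with library sizes scaled by TMM factors) on the y axis from 0 and the 3 FXR-WT and 3 Y67F-FXR livers as points, and a line at each group mean. The Nr1d1 and Nfil3 panels have no overlap between groups, whereas in Per1 the second FXR-WT liver (30.7 CPM) stood above the third Y67F-FXR liver (30.03 CPM).

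Arntl and Clock, the activators, did not differ between groups beyond the spread between livers. Arntl stood at 1.32, 1.45 and 1.08 CPM in the FXR-WT livers and at 2.09, 0.982 and 1.34 CPM in the Y67F-FXR livers, given here and elsewhere in the order of their replicate numbers. It rested on few reads, from 18 to 43 per liver, and the Y67F-FXR livers spanned both the lowest and the highest value. The log2 fold change was 0.20 (SE 0.33, 95% interval -0.56 to 0.97, adjusted p = 0.869 by edgeR's quasi-likelihood test). Clock stood at 8.996, 10.8 and 13.1 CPM in FXR-WT and at 17.3, 8.07 and 11.1 CPM in Y67F-FXR, again with the extremes of all 6 livers inside the Y67F-FXR group. Its log2 fold change was 0.15 (SE 0.28, 95% interval -0.49 to 0.79, adjusted p = 0.891). Without Y67F-FXR replicate 1 both turned to the other sign, Arntl to -0.14 and Clock to -0.19.

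Of the genes for the repressors of that pair, Per1 had the largest fitted difference of the 10. Per1 stood at 14.7, 30.7 and 20.05 CPM in FXR-WT and at 43.2, 42.2 and 30.03 CPM in Y67F-FXR. Group means were 21.8 ± 8.16 and 38.5 ± 7.33 CPM (SD, n = 3 each), and the groups overlapped through the second FXR-WT and the third Y67F-FXR liver. The fitted log2 fold change was 0.82 (SE 0.27, 95% interval 0.19 to 1.44), a fold of 1.76 (1.14 to 2.71), with adjusted p = 0.234 in edgeR's quasi-likelihood test. With each liver left out in turn the value ranged from 0.60 to 1.14 and the unadjusted edgeR p from 0.00192 to 0.0476.

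Per2, which encodes a repressor of the same complex, was fitted in the other direction. It stood at 21.5, 28.7 and 30.5 CPM in FXR-WT and at 25.4, 16.8 and 22.5 CPM in Y67F-FXR. The lowest of the 6 was the second Y67F-FXR liver and the highest the third FXR-WT liver, but the first FXR-WT liver lay within the Y67F-FXR range. The log2 fold change was -0.32 (SE 0.20, 95% interval -0.77 to 0.13, adjusted p = 0.566 by edgeR). Per2 reached an unadjusted edgeR p of 0.0318 when read counts were corrected for gene length and of 0.0398 without FXR-WT replicate 1, but neither value held after adjustment (adjusted p = 0.240 and 0.374). With single livers left out its log2 fold change ranged from -0.46 without FXR-WT replicate 1 to -0.18 without Y67F-FXR replicate 2, and was -0.22 without FXR-WT replicate 3.

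Per3 and Cry1 overlapped between groups. Per3 stood at 26.4, 34.1 and 37.2 CPM in FXR-WT and at 42.3, 38.7 and 33.0 CPM in Y67F-FXR. Its log2 fold change was 0.22 (SE 0.16, 95% interval -0.16 to 0.60, adjusted p = 0.645 by edgeR). Cry1, a cryptochrome that binds the PER proteins in the repressor complex, stood at 3.28, 4.07 and 5.36 CPM in FXR-WT and at 5.25, 5.46 and 4.73 CPM in Y67F-FXR. In both genes the first FXR-WT liver was the lowest of all 6, and the other livers were mixed. The Cry1 log2 fold change was 0.28 (SE 0.22, 95% interval -0.23 to 0.78, adjusted p = 0.675). Leaving out FXR-WT replicate 1 took Cry1 to 0.12 and Per3 to 0.089, and leaving out FXR-WT replicate 3 took Cry1 to 0.48. Per3 was 0.14 without Y67F-FXR replicate 1.

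Nr1d1, which encodes REV-ERBα, was higher in each Y67F-FXR liver than in any FXR-WT liver. It stood at 70.3, 65.7 and 50.6 CPM in FXR-WT and at 88.4, 95.4 and 92.3 CPM in Y67F-FXR. The means were 62.2 ± 10.3 and 92.0 ± 3.54 CPM (SD, n = 3 each), and the gap between the nearest livers was from 70.3 to 88.4 CPM. The log2 fold change was 0.57 (SE 0.15, 95% interval 0.23 to 0.90), a fold of 1.48 (1.17 to 1.87), with adjusted p = 0.138 by edgeR's quasi-likelihood test. Leaving out each liver gave 0.44 to 0.66, with unadjusted edgeR p from 0.00286 to 0.0159. The gene lies at chr11:98629249-98636556 on the minus strand of mm9, the build of the counts, and no other gene model overlapped its exons.

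Nr1d2, which encodes the related REV-ERBβ and usually cycles closely with Nr1d1, showed no such difference. It stood at 44.3, 53.4 and 59.8 CPM in FXR-WT and at 65.0, 50.6 and 54.6 CPM in Y67F-FXR. The groups overlapped, and the log2 fold change was 0.11 (SE 0.16, 95% interval -0.25 to 0.47, adjusted p = 0.838 by edgeR). Without FXR-WT replicate 1 it was -0.0010. The ratio of Nr1d1 to Nr1d2 reads within each liver was 1.59, 1.23 and 0.847 in FXR-WT and 1.36, 1.89 and 1.69 in Y67F-FXR, with overlap, so a difference between these paralogs was not separated from the spread between livers.

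**Figure D2:**
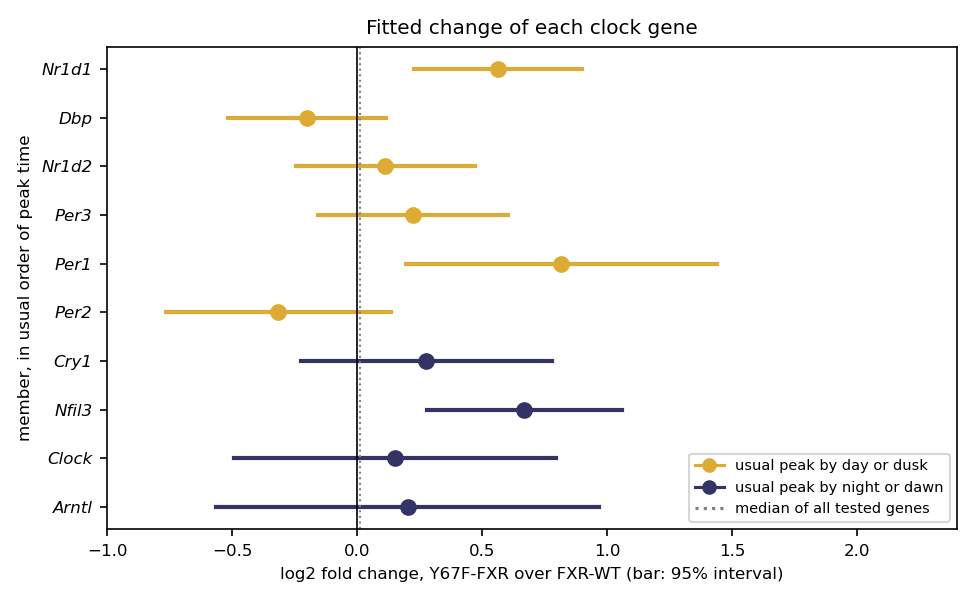
The x axis gives the fitted log2 fold change of Y67F-FXR over FXR-WT for each clock gene on the y axis, with bars for the 95% interval and a dotted line at the median of all tested genes (0.012). Genes are ordered by their usual time of peak in mouse liver, from general knowledge, and the 3 intervals that leave out 0 belong to Nr1d1, Per1 and Nfil3.

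Nfil3 and Dbp, the D-box output factors with opposite action, were fitted in opposite directions. Nfil3 stood at 9.68, 11.2 and 10.7 CPM in FXR-WT and at 15.5, 14.3 and 20.4 CPM in Y67F-FXR. Each Y67F-FXR liver was above each FXR-WT liver, the third one most, and the means were 10.5 ± 0.776 and 16.7 ± 3.25 CPM (SD, n = 3 each). The log2 fold change was 0.67 (SE 0.17, 95% interval 0.28 to 1.06), a fold of 1.59 (1.21 to 2.08), with adjusted p = 0.133 by edgeR's quasi-likelihood test. Leaving out each liver gave 0.51 to 0.76, with unadjusted edgeR p from 0.00243 to 0.0178. With DESeq2 the adjusted p was 0.0236, which made Nfil3 the 1 clock gene called by that tool, while Nr1d1 had a DESeq2 adjusted p of 0.0250 with a fold under 1.5. DESeq2 called 431 genes on the same counts.

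Dbp stood at 88.6, 101 and 110 CPM in FXR-WT and at 83.7, 78.9 and 97.6 CPM in Y67F-FXR. The third Y67F-FXR liver lay within the FXR-WT range, and the first FXR-WT liver lay within the Y67F-FXR range. The log2 fold change was -0.20 (SE 0.14, 95% interval -0.52 to 0.11, adjusted p = 0.614 by edgeR), and was -0.12 without FXR-WT replicate 3. The Dbp count is uncertain, since 539 of its 1678 exonic bases (32.1%) overlap Sphk2 on the opposite strand and reads there, counted without strand, were left out.

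Ratios of clock genes within a liver do not depend on library size, and 8 were computed, as descriptions picked with these values known. The ratio of Nfil3 to Dbp reads was 0.109, 0.111 and 0.0973 in FXR-WT and 0.185, 0.181 and 0.209 in Y67F-FXR. Nr1d1 to Dbp was 0.794, 0.653 and 0.460 in FXR-WT and 1.06, 1.21 and 0.946 in Y67F-FXR. Per1 to Per2 was 0.684, 1.07 and 0.658 in FXR-WT and 1.70, 2.51 and 1.34 in Y67F-FXR. The groups did not overlap in these or in Nr1d1 to Per2, which ranged from 1.66 to 3.27 in FXR-WT and from 3.48 to 5.68 in Y67F-FXR. Each ratio without overlap sets Nfil3, Nr1d1 or Per1, higher at an unadjusted edgeR p under 0.05, over Dbp or Per2, both fitted lower. Such ratios repeat the values of their genes and are no further support. The groups overlapped in the other 4 ratios, among them Dbp to Per2 (3.51 to 4.12 in FXR-WT and 3.29 to 4.70 in Y67F-FXR) and Nr1d1 to Arntl (45.2 to 53.3 and 42.3 to 97.2).

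Arranged by usual time of peak, the fitted values had no single direction. Nr1d1, Dbp, Nr1d2, Per3, Per1 and Per2, which usually peak in that order by day or around dusk, had log2 fold changes of 0.57, -0.20, 0.11, 0.22, 0.82 and -0.32, with a median of 0.17. Cry1, Nfil3, Clock and Arntl, which usually peak by night or near dawn, had 0.28, 0.67, 0.15 and 0.20, with a median of 0.24. Single livers moved both medians, the daytime one to 0.044 without FXR-WT replicate 1 and 0.27 without FXR-WT replicate 3, and the night one to 0.061 without Y67F-FXR replicate 1 and 0.39 without FXR-WT replicate 3. Without Y67F-FXR replicate 1 the daytime median, 0.072, was the higher of the pair. Neighbours in time therefore had fitted values of opposite sign, Nr1d1 beside Dbp and Per1 beside Per2, and the genes at an unadjusted p under 0.05 did not stand next to each other in that order. Within a liver, the mean deviation of the daytime genes minus that of the night genes was -0.0079, 0.13 and 0.00055 log2 units in FXR-WT and -0.19, 0.17 and -0.11 in Y67F-FXR, with overlap. Without a series of hours, a shift of the whole cycle and a change in the level of single genes cannot be told apart in these 6 livers.

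**Figure D3:**
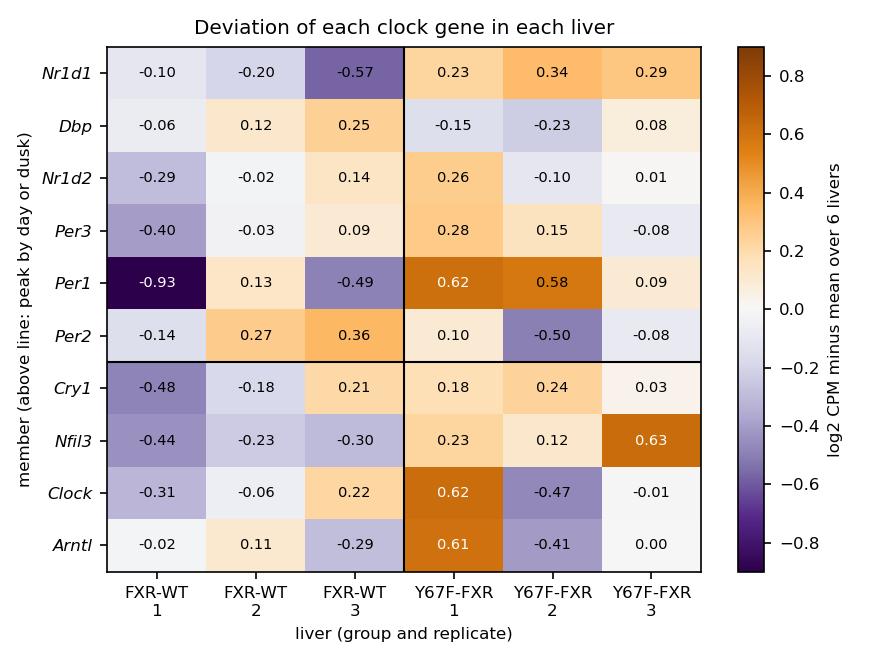
Each cell gives the log2 CPM of 1 clock gene (y axis, in usual order of peak time) in 1 liver (x axis) minus its mean over the 6 livers, orange for higher and purple for lower. The Per1 cell of FXR-WT replicate 1 is the lowest at -0.93, and Nr1d1 and Nfil3 are below 0 in all 3 FXR-WT livers and above 0 in all 3 Y67F-FXR livers.

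Single livers carried much of the spread. FXR-WT replicate 1 was the lowest FXR-WT liver in 8 of the 10 clock genes and the lowest of all 6 in 5, and FXR-WT replicate 3 was the lowest FXR-WT liver in the other 2. Y67F-FXR replicate 1 was the highest of all 6 in 5, and Y67F-FXR replicate 2 the lowest of all 6 in 4. These livers also differed in how reads fell on short and long genes. For the shortest 20% of tested genes (median 1152 exonic bases) the median deviation was 0.22 log2 units in Y67F-FXR replicate 2 and 0.20 in FXR-WT replicate 1, but -0.20 in Y67F-FXR replicate 1 and -0.18 in FXR-WT replicate 3. The longest 20% (median 6200 exonic bases) went the other way, with 0.19 in Y67F-FXR replicate 1 and -0.17 in Y67F-FXR replicate 2. Clock, with 7478 exonic bases, was also highest and lowest in those Y67F-FXR livers, and its SE was 0.28 without and 0.19 with a correction for length. With the same correction the SE of Per2 went from 0.20 to 0.13 and that of Nr1d2 from 0.16 to 0.11, while Arntl stayed near its value (0.33 and 0.32). Nfil3, Per1 and Nr1d1 had log2 fold changes of 0.68, 0.81 and 0.57 with it, and no clock gene was called by edgeR.

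Per length of transcript, Dbp was the most abundant clock gene and Arntl the least. Mean levels over the 6 livers, as CPM divided by exonic length in kilobases (RPKM), were 55.6 for Dbp, 29.4 for Nr1d1, 11.8 for Nr1d2, 6.85 for Nfil3, 6.42 for Per1, 5.93 for Per3, 4.15 for Per2, 1.55 for Cry1, 1.54 for Clock and 0.474 for Arntl. The range over livers lay above that of the next gene for Dbp, Nr1d1, Per2 and Clock, and the other neighbours in this order overlapped. The Dbp level is a low estimate, as it was divided by all 1678 exonic bases although reads on 539 of them were left out.

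Other regulators of the clock overlapped between the groups for the most part. Of 23 such genes 20 were tested, and Npas2, a relative of Clock, was among the untested with 1 to 6 reads per liver. Of the 20, 6 were fitted lower and 14 higher, beside 52% of all tested genes fitted higher, and their median log2 fold change was 0.16. None was called by edgeR or by DESeq2, and Tef alone in edgeR reached an unadjusted p under 0.05, which 13.4% of all tested genes reached. Tef, a D-box activator related to Dbp, stood at 164, 199 and 185 CPM in FXR-WT and at 229, 239 and 229 CPM in Y67F-FXR. Its groups did not overlap, and its log2 fold change was 0.35 (SE 0.12, adjusted p = 0.251 by edgeR). Hlf, of the same D-box family, had 36.4, 79.6 and 73.6 CPM in FXR-WT and 85.0, 61.2 and 71.2 CPM in Y67F-FXR, with a log2 fold change of 0.20 (adjusted p = 0.842) and overlap between groups.

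Rora, an activator at the ROR element, had a fitted log2 difference of 0.38 (adjusted p = 0.822 by edgeR). Cry2 had 0.19, Ciart, a repressor of the activator pair, 0.40, Bhlhe40, a repressor at E-boxes, -0.094 and its relative Bhlhe41 0.40, with edgeR adjusted p from 0.657 to 0.888, and the groups of Rora and of these 4 overlapped. The Cry2 and Bhlhe40 counts are uncertain, as 3.41% and 3.79% of their exonic bases overlap another gene. Besides Tef, the groups did not overlap in Csnk1d, a kinase of PER proteins, and Hdac3, a histone deacetylase recruited by REV-ERB, both named after their values were seen. That made 3 of the 20 tested regulators, all higher in Y67F-FXR. Over all tested genes the groups did not overlap in 10.2% as higher and in 20.6% in either direction. Csnk1d was fitted 0.23 log2 units higher (adjusted p = 0.412 by edgeR) and Hdac3 0.26 (adjusted p = 0.445).

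Several rhythmic liver genes downstream of the clock were higher in Y67F-FXR. Of 14 such genes, all tested, 12 were fitted higher and 2 lower, 9 reached an unadjusted p under 0.05 as higher, and 4 were called by edgeR, with a median log2 fold change of 0.68 (6 were called by DESeq2). Of all tested genes, 52% were fitted higher, 6.75% reached that p in edgeR as higher and 0.972% were called by edgeR in either direction. The list was chosen with earlier results of these data known, so these counts are descriptions. The 4 called by edgeR were Por, Alas1, Elovl3 and Insig2. Por, the electron donor of cytochromes P450, went from 449, 608 and 468 CPM in FXR-WT to 1015, 1326 and 1151 CPM in Y67F-FXR, a log2 fold change of 1.20 (SE 0.17, adjusted p = 0.0244 by edgeR). Alas1, the first enzyme of haem synthesis, had 792, 860 and 723 CPM against 1377, 1329 and 1531 CPM, a log2 fold change of 0.84 (SE 0.13, adjusted p = 0.0333 by edgeR). In both genes each Y67F-FXR liver was above each FXR-WT liver.

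Elovl3, an elongase of fatty acids, had 21.4, 44.4 and 37.9 CPM in FXR-WT against 106, 98.8 and 106 CPM in Y67F-FXR, a log2 fold change of 1.58 (SE 0.25, adjusted p = 0.0336 by edgeR), and 9 of its exonic bases overlap Pitx3. Insig2, which holds back sterol and lipid synthesis, had 61.5, 65.0 and 67.2 CPM against 134, 135 and 106 CPM, a log2 fold change of 0.95 (SE 0.13, adjusted p = 0.0244 by edgeR). The groups did not overlap in either gene. These genes answer to many inputs besides the clock, and which input they followed was not tested. Leaving out single livers ended most of these calls. Alas1 and Insig2 lost theirs whichever liver was left out (edgeR adjusted p 0.0585 to 0.141 and 0.0537 to 0.105). Elovl3 kept its call only without FXR-WT replicate 1 (0.0200 to 0.137), and Por only without FXR-WT replicate 2 or Y67F-FXR replicate 1 (0.0409 to 0.107). The fold changes of the 4 stayed higher throughout.

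**Figure D4:**
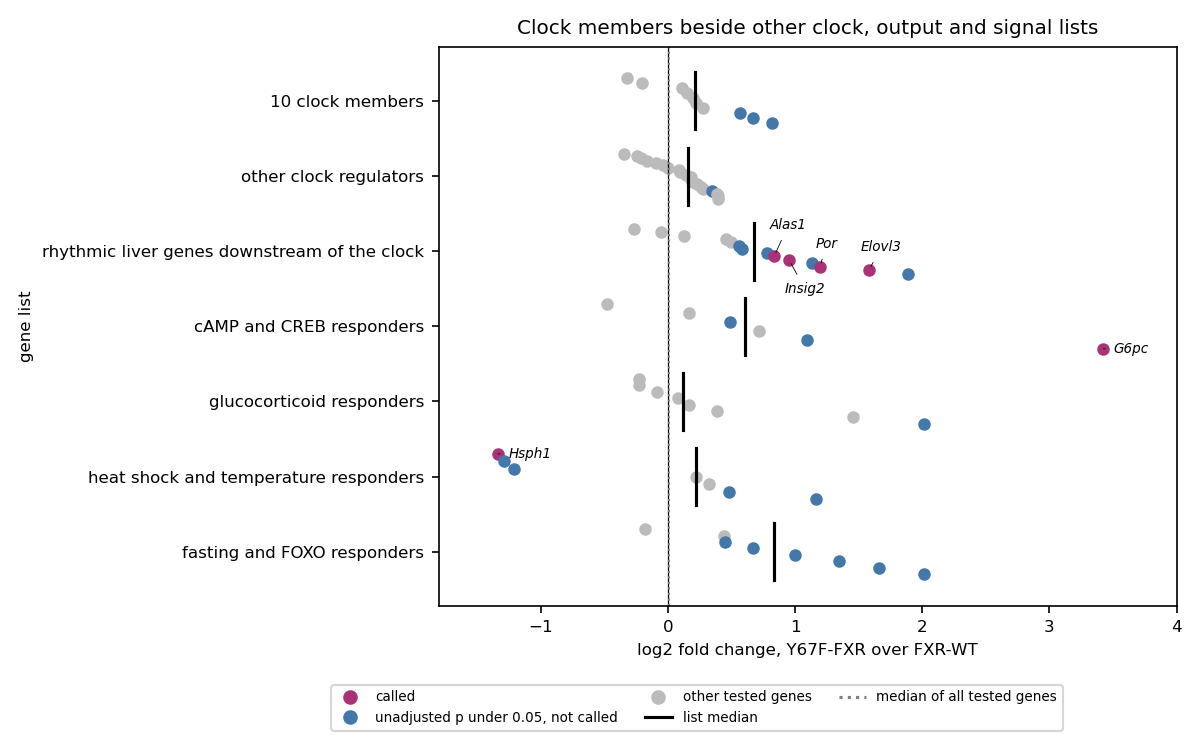
The x axis gives the log2 fold change of Y67F-FXR over FXR-WT for each tested gene of 7 lists (y axis), with a black line at the list median and a dotted line at the median of all tested genes. The clock genes lie from -0.32 to 0.82 with a median of 0.21, and the rhythmic downstream genes reach 1.89 with a median of 0.68.

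Genes that answer to signals known to reach Per1, Nfil3 or Nr1d1 were examined beside them, in lists also chosen with earlier results known. For comparison, 52% of all tested genes were fitted higher and 0.972% were called by edgeR. An unadjusted edgeR p under 0.05 was reached by 6.75% of them as higher and by 13.4% in either direction. Of 8 genes that respond to cAMP and CREB, 6 were tested, 5 were fitted higher and 3 reached an unadjusted p under 0.05 (G6pc, Pck1 and Sik1), with a median log2 fold change of 0.61. DESeq2 called G6pc and Pck1. The other tested genes of this list, Ppargc1a (0.72), Crem (0.17) and Nr4a1 (-0.48), did not reach an unadjusted edgeR p under 0.05. Nr4a2 and Nr4a3 had too few reads to be tested. Apart from G6pc, the genes of this list are named after their values were seen. G6pc, the last enzyme of glucose release, rose from 13.3, 52.6 and 31.5 CPM in FXR-WT to 471, 281 and 293 CPM in Y67F-FXR, a log2 fold change of 3.42 (SE 0.48, adjusted p = 0.0244 by edgeR). The groups were far apart, but the edgeR call was lost without FXR-WT replicate 3, Y67F-FXR replicate 1 or Y67F-FXR replicate 3 (adjusted p 0.0200 to 0.105 over the 6 livers left out). Of 8 glucocorticoid responders 5 were fitted higher and none was called by edgeR or by DESeq2, with 1 at an unadjusted p under 0.05 and a median of 0.12. The smallest p values there were those of the metallothioneins Mt2 (log2 fold change 2.02, adjusted p = 0.186 by edgeR) and Mt1 (1.46, adjusted p = 0.424), where 1 liver moved both. Without FXR-WT replicate 1 the log2 fold change was 3.12 for Mt2 (adjusted p = 0.0200 by edgeR) and 2.74 for Mt1 (adjusted p = 0.0621), and the lowest with another liver left out were 1.67 and 0.97.

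Of 8 responders to fasting and FOXO 7 were fitted higher, beside 52% of all tested genes. An unadjusted edgeR p under 0.05 was reached by 6 as higher, beside 6.75% of all tested genes. None was called by edgeR and 4 by DESeq2, with a median of 0.83. Klf15, a fasting-induced factor that itself cycles, was fitted 0.67 log2 units higher (adjusted p = 0.0704 by edgeR) and was among those called by DESeq2 and was called with the length correction. Angptl4, an inhibitor of lipoprotein lipase, had 1.66 (adjusted p = 0.106 by edgeR), and was called by DESeq2 and, in edgeR, without FXR-WT replicate 1 (adjusted p = 0.0227). Of 8 heat shock and temperature responders 7 were tested, and 2 were higher and 3 lower at an unadjusted edgeR p under 0.05. That p was reached by 13.4% of all tested genes in either direction. The list median was 0.22, and DESeq2 called 3 lower and 0 higher. Hsph1, a co-chaperone, fell from 95.1, 74.0 and 119 CPM to 37.0, 30.9 and 46.2 CPM, a log2 fold change of -1.33 (adjusted p = 0.0357 by edgeR), a call that was lost whichever liver was left out (0.0507 to 0.112). Whether any of these signals acted on Per1, Nfil3 or Nr1d1 was not tested.

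Library totals ranged from 19551113 to 22053320 reads. Nr1h4 itself stood at 152, 209 and 198 CPM in FXR-WT and at 169, 169 and 186 CPM in Y67F-FXR, with a log2 fold change of -0.094 (adjusted p = 0.861 by edgeR). The reads of the floxed mouse gene and of the transgene were not separated, so this value does not check the deletion. The labelled tissue was matched by the 6 hepatocyte markers, which summed to 97230 to 111847 CPM in FXR-WT and 93813 to 115995 CPM in Y67F-FXR. Sums of markers of Kupffer cells and leukocytes (156 to 229 against 126 to 330 CPM), sinusoidal endothelial cells (161 to 191 against 165 to 174 CPM) and cholangiocytes (46.2 to 71.2 against 54.1 to 60.6 CPM) overlapped between groups, as did those of erythrocytes (80.4 to 89.3 against 86.5 to 114 CPM), whose 4 globin genes were at 0 reads. Within these sums, the endothelial marker Lyve1 was lower in Y67F-FXR without overlap (log2 fold change -0.89, adjusted p = 0.210 by edgeR). So was the hepatocyte marker Fgb (-0.53, adjusted p = 0.184 by edgeR), and the other tested markers there overlapped.

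Sums of markers did not overlap between groups for neutrophils and for stellate and smooth muscle cells. Both sums were lower in Y67F-FXR, where Nr1d1 and Nfil3 were higher. Taken singly, 3 of the 7 stellate and smooth muscle cell markers had no overlap, all lower. The neutrophil markers found in the files (3 of the 4 listed) summed to 2.64 to 5.04 CPM in FXR-WT and 0.525 to 2.18 CPM in Y67F-FXR, with both tested markers, S100a8 and S100a9, lower at an unadjusted p under 0.05 in edgeR and S100a9 called by DESeq2. The third, Retnlg, had too few reads to be tested, with 8, 8 and 4 in FXR-WT and 4, 18 and 3 in Y67F-FXR, and was highest in Y67F-FXR replicate 2. The 7 stellate and smooth muscle cell markers summed to 76.9 to 106 CPM in FXR-WT and 63.1 to 71.8 CPM in Y67F-FXR, with 6 fitted lower, 3 of them at an unadjusted p under 0.05 in edgeR and 1, Lrat, called by DESeq2. Their part in the clock gene values was not tested, and in whole liver fewer cells of a type and less RNA per cell cannot be told apart.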

How the data were processed

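RNA of 3 FXR-WT and 3 Y67F-FXR livers was sequenced, and groups were taken from the sample labels. The labels number the samples within a group without tying each to a mouse, so p-values measure the spread between these samples. The authors deposited raw read counts per gene for each sample, with no normalization. Per the file headers and the labels, they used bcl2fastq 2.17.1.14, Trimmomatic 0.36, FastQC 0.11.5, STAR 2.5.3a and featureCounts 1.4.6-p4, with gene models of UCSC for mm9. Counting ignored strand, took each mate of a pair as its own read and dropped reads that hit more than one gene or place, so near-identical copies and overlapping genes are undercounted. A table of the authors' own comparison (log fold change, mean log2 CPM, p and FDR) was not used.

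The test used edgeR 4.0.16 under R 4.3.3 with limma 3.58.1: filterByExpr, TMM factors, glmQLFit and glmQLFTest, with Benjamini-Hochberg adjustment over 12453 genes. A call needed an adjusted p under 0.05 and a fold over 1.5. Intervals (95%) come from the F statistic and its degrees of freedom. TMM factors also scaled the CPM, with a prior count of 2 on the log2 scale. The fit was tested on simulated data. Alternatives were RLE factors, library totals, DESeq2 1.42.0, no filter on low counts, the replicate number as a block, offsets by gene length (loess, span 0.3) and each liver left out. Figures used Python 3.11.15 and matplotlib 3.10.9. Named are the 10 clock genes, other clock regulators at an unadjusted p under 0.05 with 9 fixed ones (1 of them not reported here), the called genes of the rhythmic and signal lists or otherwise the 2 with the smallest p of each, and Nr1h4. Cell type markers and the few other genes named were picked after their values were seen. The genes and lists were chosen with earlier results of these data known. Promoter windows are RefSeq's, in GRCm38.p6, and gene positions are in mm9. Totals of about the same size gave similar counting precision in all libraries, and Arntl, with 18 to 43 reads, is the least precise clock gene.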

Additional observations from a re-analysis of the deposited data

How the results depend on the processing

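The 3 clock genes at an unadjusted p under 0.05 were Nfil3, Per1 and Nr1d1 in each of the 12 alternatives, joined by Per2 with offsets by gene length and without FXR-WT replicate 1. Over those alternatives 116 values of clock genes kept their direction and their side of the threshold, 3 turned to the other sign and 1, Nfil3 with DESeq2, passed the threshold, so that DESeq2 called 1 clock gene. The number of genes called was 121, against 431 with DESeq2, 247 with offsets by gene length and 9 to 66 with a liver left out, the lowest without FXR-WT replicate 3. Library totals in place of TMM gave 52 higher and 68 lower calls, against 68 and 53, and moved the median of all genes to -0.057. With a replicate block 8 genes were called (2 higher and 6 lower), and 3 clock genes had an unadjusted edgeR p under 0.05. Deviations of same-numbered livers correlated over genes at -0.52, -0.080 and 0.12, so the numbers were not taken as pairs, and FXR-WT replicate 1 correlated best with Y67F-FXR replicate 2. Por, Alas1, Elovl3, Insig2, G6pc and Hsph1 lost their calls with the block, and the cause was not tested.

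With single livers left out, log2 fold changes ranged from -0.14 to 0.41 for Arntl, -0.19 to 0.36 for Clock, -0.0010 to 0.22 for Nr1d2, -0.16 to 0.98 for Rora, -0.084 to 0.40 for Hlf, -0.0065 to 0.58 for Ciart and -0.25 to 0.056 for Bhlhe40, each of which changed sign in 1 of the 6. Few reads for Arntl and Rora limit what can be seen there.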
